A study of Homo sapiens with 18 samples.

Results

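The 10 genes described here are the AP-1 subunits FOS, FOSB, FOSL1, FOSL2, JUN and JUNB, the early growth response factors EGR1 and EGR2, the activity-regulated cytoskeletal gene ARC and the phosphatase gene DUSP1. They were taken by symbol from a table of 25296 genes, in which each of the 10 had a row of its own, and all 10 were among the 18226 genes with enough counts to be tested. RNA was sequenced from U2OS, an established human osteosarcoma line, in 18 libraries. There were 3 overexpression lines. EV carries MigR1, a retroviral vector, with no insert, WT overexpresses normal DNMT3A, an enzyme that methylates DNA, and MUT overexpresses a mutant form of it. Each line was sampled untreated and with 10 µM cytarabine at 24 h, in 3 biological replicates per group, which made 6 groups. Cytarabine is a nucleoside drug that resembles cytidine and stalls replication once incorporated. The mutation is R882H in the sample labels and R882C in the series text, the untreated cells are called a vehicle control in the series text, and whether each line is a pool or 1 clone is not given in the sources used here. The U2OS background is shared by all groups, EV included, and every line also holds its own DNMT3A gene.

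Immediate early genes are switched on within minutes of a growth factor, stress or damage signal, without new protein being made, because their promoters are already bound by factors such as SRF, its ELK1 partners and CREB that MAP kinases activate. FOS and JUN proteins pair through leucine zippers into the dimeric factor AP-1, which binds DNA and drives genes of growth, invasion and inflammation. EGR proteins bind DNA through zinc fingers, and DUSP1 removes phosphate from MAP kinases and so limits the signal that induced it. In mesenchymal and bone tumour cells the FOS relatives FOSL1 and FOSL2 are often the standing FOS-family members, whereas FOS itself appears as a short burst. RNA taken once, at 24 h, shows the level at that time and not such a burst.

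The members are compact genes. Their annotated span had a median of 5498.5 bases, against 30102 bases over the 15576 tested genes matched to GENCODE release 44 (85.5% of those tested), and their canonical transcripts had 1 to 4 exons, with a median of 3.5 against 8. Transcript length differed less, with medians of 2964.5 and 3121.5 bases. In the coordinates of the authors' table (hg38, per the submitters' processing notes), JUN lies on the minus strand at chr1:58780788-58784328 and JUNB on the plus strand at chr19:12791496-12793316. FOS lies at chr14:75278774-75282231, FOSB at chr19:45467995-45475180 and FOSL2 at chr2:28392448-28417313, each on the plus strand, and FOSL1 lies on the minus strand at chr11:65892049-65900574. EGR1 is at chr5:138465490-138469316 on the plus strand, and on the minus strand lie DUSP1 at chr5:172768090-172771196, EGR2 at chr10:62811996-62919901 and, with 3 exons, ARC. Exons of JUNB overlap those of HOOK2, and exons of EGR2 overlap those of ENSG00000289487. How the counting treated strand is not given in the sources used here, so the values of JUNB and EGR2 are uncertain to that extent. The interval given for EGR2 in the authors' table is also much longer than the 7172 bases GENCODE gives it.

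Promoters from 250 bases before to 50 bases after the gene start in RefSeq (GRCh38.p14) were used for 8 of the 10 members, all but FOSL1 and ARC. Those of 6 members are shown, because JUN and DUSP1 fell with cytarabine in every line, FOSL2 fell in EV and WT, FOSB rose in every line, and FOS and EGR1, the best known of the class, did not pass the test in any line. Capitals mark matches, on either strand, to the SRF site known as the CArG box, to the CREB site TGACGTCA, to its core TGACGT, which the full site contains, to the AP-1 site TGANTCA and to TGACATCA, the variant known from JUN. The windows are chr5:138465229-138465528 (plus strand) for EGR1, chr14:75278578-75278877 (plus) for FOS, chr1:58783998-58784297 (minus) for JUN, chr5:172771146-172771445 (minus) for DUSP1, chr2:28392608-28392907 (plus) for FOSL2 and chr19:45467746-45468045 (plus) for FOSB.
EGR1: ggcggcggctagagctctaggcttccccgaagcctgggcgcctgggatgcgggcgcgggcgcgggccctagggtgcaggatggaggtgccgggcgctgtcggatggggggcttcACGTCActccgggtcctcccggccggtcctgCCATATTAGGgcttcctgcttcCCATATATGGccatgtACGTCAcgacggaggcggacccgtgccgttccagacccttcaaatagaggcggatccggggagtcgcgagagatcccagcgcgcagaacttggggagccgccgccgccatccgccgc
FOS: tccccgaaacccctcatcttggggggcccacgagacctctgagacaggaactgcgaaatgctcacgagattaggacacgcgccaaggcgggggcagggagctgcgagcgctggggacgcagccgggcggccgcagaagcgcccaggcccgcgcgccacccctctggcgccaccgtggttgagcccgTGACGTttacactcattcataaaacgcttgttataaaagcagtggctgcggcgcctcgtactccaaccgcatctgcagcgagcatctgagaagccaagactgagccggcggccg
JUN: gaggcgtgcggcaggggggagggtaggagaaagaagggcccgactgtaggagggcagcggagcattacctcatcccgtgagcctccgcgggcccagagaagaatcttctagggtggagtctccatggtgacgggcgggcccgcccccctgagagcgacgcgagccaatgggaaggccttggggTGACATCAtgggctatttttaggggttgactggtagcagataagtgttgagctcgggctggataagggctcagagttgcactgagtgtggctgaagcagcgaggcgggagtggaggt
DUSP1: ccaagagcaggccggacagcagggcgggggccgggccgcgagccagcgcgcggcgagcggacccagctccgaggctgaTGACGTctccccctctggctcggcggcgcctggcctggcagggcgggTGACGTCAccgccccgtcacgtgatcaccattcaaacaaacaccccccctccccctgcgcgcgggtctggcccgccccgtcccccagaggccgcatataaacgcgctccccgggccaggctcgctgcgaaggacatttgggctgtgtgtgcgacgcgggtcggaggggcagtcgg
FOSL2: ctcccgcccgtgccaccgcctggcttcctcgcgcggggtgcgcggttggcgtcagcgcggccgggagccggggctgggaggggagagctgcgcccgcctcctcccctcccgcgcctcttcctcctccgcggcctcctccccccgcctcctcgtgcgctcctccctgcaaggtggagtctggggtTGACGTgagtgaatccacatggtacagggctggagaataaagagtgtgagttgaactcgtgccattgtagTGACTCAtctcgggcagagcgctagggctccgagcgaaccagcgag
FOSB: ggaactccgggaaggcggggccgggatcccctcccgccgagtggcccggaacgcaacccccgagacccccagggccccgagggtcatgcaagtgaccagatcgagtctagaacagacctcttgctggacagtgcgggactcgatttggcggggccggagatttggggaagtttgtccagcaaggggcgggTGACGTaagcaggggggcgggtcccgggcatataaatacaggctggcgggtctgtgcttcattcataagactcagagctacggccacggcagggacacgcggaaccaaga

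Counting the gene start as base 0, EGR1 held CArG boxes at -105 to -96 and at -83 to -74. Outside EGR1, only EGR2 among the 8 members held a CArG box within the window, at -71 to -62 of 1 of its 3 RefSeq starts. Sequence beyond the window was not searched, so a member without a match here, FOS included, may still hold a CArG box farther away. Of all 35116 promoters of the same length in the RefSeq table, 1.29% held one. The core TGACGT was found in 6 of the 8 members (DUSP1, EGR1, EGR2, FOS, FOSB and FOSL2), a member counting if any of its starts held it. Of all promoters, each start counted singly, 7.98% held it. In several of these members the core stood at similar distances, at -64 to -59 in FOS, -60 to -55 in FOSB, -66 to -61 in FOSL2 and -67 to -62 in EGR1. The full site TGACGTCA was found in DUSP1 at -125 to -118 and in 1.85% of all promoters. JUN held TGACATCA at -67 to -60, which 2.61% of all promoters held, and FOSL2 held TGANTCA at 4 to 10, which 7.71% held. None of these letters was found in the JUNB window. TGACGT was thus held both by genes that rose and by genes that fell with cytarabine, and a match of letters says nothing on whether a factor was bound.

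Library totals ran from 15.4 to 21.9 M counts. DNMT3A averaged 26.9 counts per M counts of the scaled library (CPM) in untreated EV, 133 in untreated WT and 456 in untreated MUT cells, so that both lines labelled as overexpressing it lay above EV, and the table does not separate the introduced gene from the cells' own. The 3 untreated MUT libraries stood apart from each other: DNMT3A ran from 254 to 615 CPM in them, and their biological coefficient of variation was 0.216, against 0.0397 to 0.132 in the other groups. Results that rest on 1 of these libraries are given with and without it. The mesenchymal markers VIM, SPARC, COL1A1 and RUNX2 were present (medians over all libraries of 1600, 1040, 176 and 44.4 CPM), COL1A2 was low at 1.90 CPM, and the leukocyte marker PTPRC did not exceed 1.41 CPM. With cytarabine in EV, the summed level of the 8 mesenchymal and osteoblast markers went from 3190 to 3310 CPM down to 2310 to 2400, while the 5 epithelial markers went from 16.1 to 18.9 up to 29.1 to 29.8 and the 4 endothelial markers from 3.15 to 3.91 up to 7.23 to 7.33. In WT and MUT these sums moved the same way, again with no overlap between treated and untreated libraries. The first sum was mostly VIM and SPARC. Of its 8 markers, 2 fell and 1 rose in all 3 lines, as did 16.4% and 18.9% of all tested genes. Of the epithelial and of the endothelial markers, 2 each rose and 0 fell in all 3 lines. The part of such shifts in the results was not tested. In bulk RNA, fewer cells that express a gene and less RNA of it per cell cannot be told apart.

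Scaled to exonic length, JUN was the most abundant member in untreated EV cells, at 87.9 ± 1.22 CPM per kb (SD, n = 3). DUSP1 followed at 62.9 ± 2.63, FOSL1 at 52.1 ± 0.735, FOSL2 at 42.6 ± 1.76 and JUNB at 39.4 ± 0.664 CPM per kb. None of these 5 overlapped its neighbour in that order between replicates, the closest being FOSL2 (40.9 to 44.4) and JUNB (38.8 to 40.1). ARC stood at 21.4 ± 0.484 CPM per kb and EGR1 at 14.3 ± 0.803. FOS was far lower at 2.25 ± 0.263 CPM per kb. FOSB at 0.18 ± 0.0879 and EGR2 at 0.155 ± 0.0393 CPM per kb were lowest and overlapped each other. In untreated WT cells ARC dropped below EGR1, at 6.29 ± 0.482 against 16.5 ± 2.12 CPM per kb, and in untreated MUT cells DUSP1 (46.4 ± 5.40), FOSL1 (49.1 ± 8.67) and FOSL2 (51.7 ± 10.1) overlapped.

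**Figure D1:**
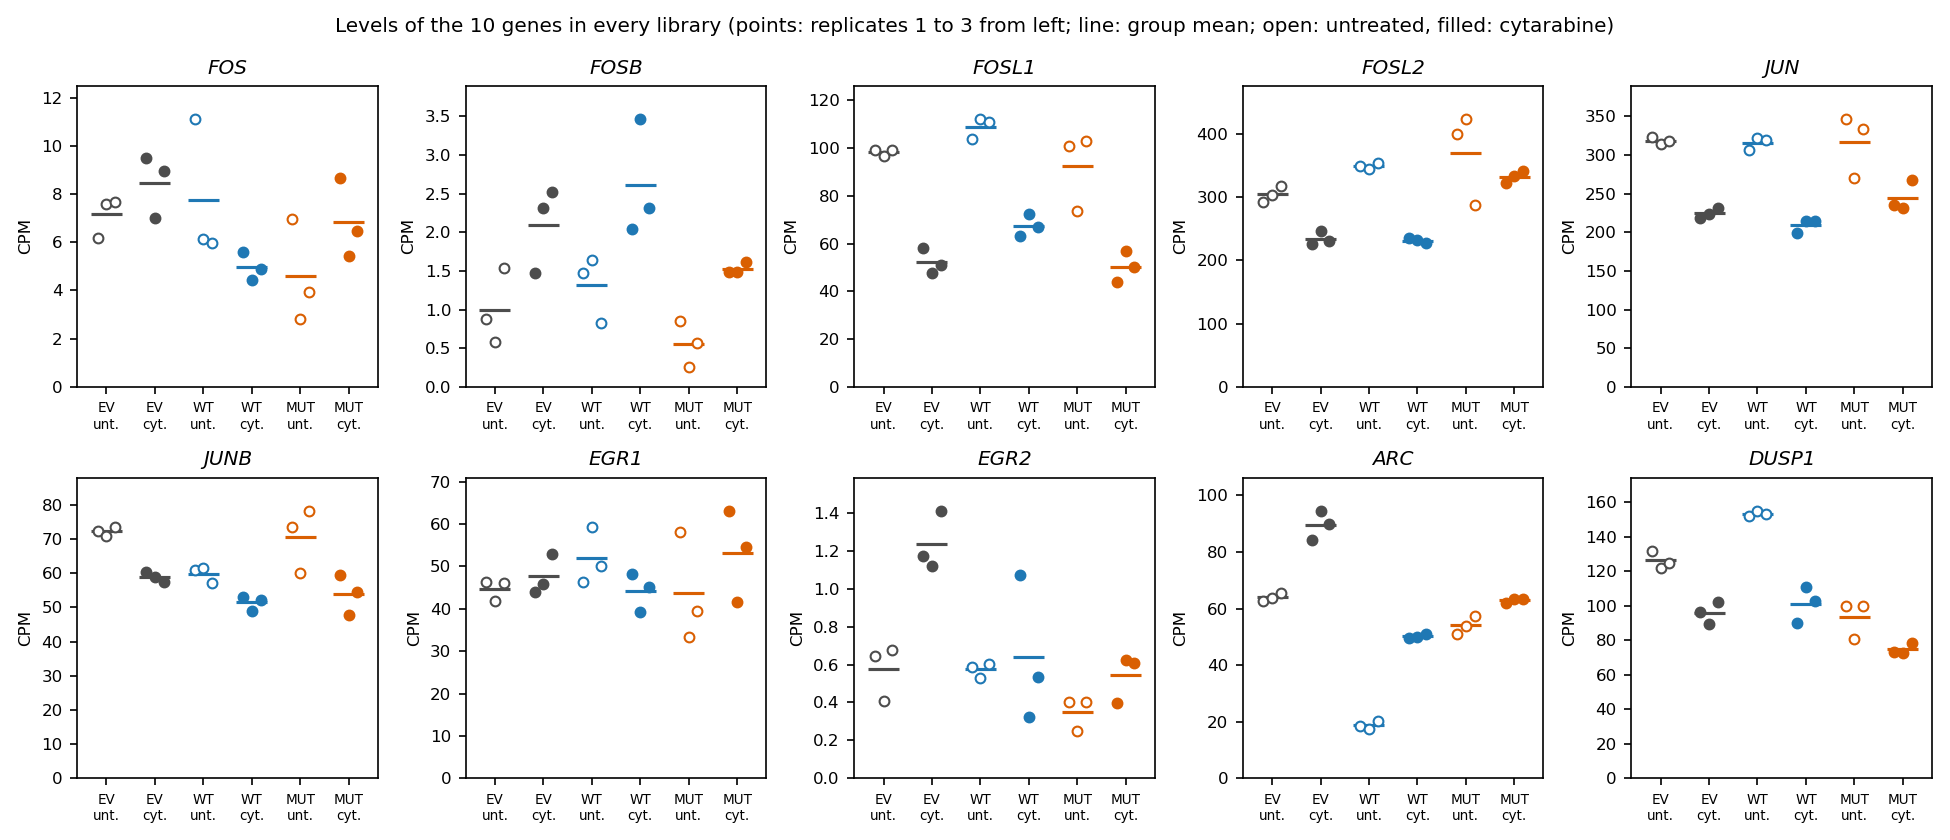
CPM (y axes, linear, from 0) of each of the 10 members in the 18 libraries, by line and treatment on the x axis, with 1 point per library (open for untreated, filled for cytarabine) and a line at the group mean. ARC is lowest in untreated WT (17.6 to 20.4 CPM), FOSL1 and JUN are lower with cytarabine in every line, and EGR2 does not exceed 1.41 CPM.

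Cytarabine lowered FOSL1, JUN, JUNB and DUSP1 and raised ARC and FOSB in all 3 lines, and it lowered FOSL2 in EV and WT. Among these calls, JUNB in WT, FOSB in EV and WT and ARC in MUT depended on single libraries or settings, as given below. Of the 10 members, 3 rose and 5 fell in EV, where 49.1% of all tested genes changed (26.1% rose and 22.9% fell). In WT, 2 rose and 5 fell, beside 49.0% of all tested genes (26.3% and 22.7%). In MUT, 2 rose and 4 fell, beside 56.3% (30.4% and 25.9%). The number of members that changed was thus 8, 7 and 6 of 10 on a background near 1 gene in 2, and is no result about the members by itself. The 4 genes FOSL1, JUN, JUNB and DUSP1 fell in all 3 lines, as did 16.4% of all tested genes, and ARC and FOSB rose in all 3, as did 18.9%. In EV the members' median log2 fold change was -0.10 (0.05 over all tested genes), while WT gave -0.41 (0.03) and MUT 0.03 (0.05).

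FOSL1, the FOS relative known for its part in invasion, fell most among the abundant members. In EV it stood at 99.0, 96.7 and 99.3 CPM untreated (replicates 1 to 3) and at 58.2, 47.6 and 50.9 CPM with cytarabine. The treated and untreated libraries did not overlap, and the fall was 0.91 on the log2 scale (SE 0.112, edgeR adjusted p 1.77e-06), to 0.532 of the untreated level. In WT the values were 104, 112 and 111 CPM untreated and 63.3, 72.3 and 66.9 CPM treated, a log2 fold change of -0.70 (SE 0.110, edgeR adjusted p 3.3e-05). MUT libraries held 101, 73.7 and 103 CPM untreated and 43.7, 56.9 and 50.2 CPM treated. Replicate 2 was the low untreated MUT library, and even so the groups did not overlap (log2 fold change -0.88, SE 0.112, edgeR adjusted p 1.74e-06).

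FOSL2, the long-lived relative of FOSL1, fell in EV and WT. It went from 293, 304 and 318 CPM to 226, 246 and 230 CPM in EV and from 350, 345 and 354 to 235, 232 and 227 CPM in WT. Neither line had overlapping groups, and the log2 fold changes were -0.38 (SE 0.0958, edgeR adjusted p 0.00264) and -0.60 (SE 0.0958, edgeR adjusted p 3.78e-05). MUT cells gave 400, 423 and 288 CPM untreated and 323, 333 and 342 CPM treated. The third untreated MUT library lay below all treated ones and the other two lay above them, and the difference did not pass (log2 fold change -0.15, edgeR adjusted p 0.176). Without that library it was -0.34 (edgeR adjusted p 3.02e-05), and with the authors' factors and all libraries it was -0.24 (0.0289).

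JUN, the main partner of the FOS proteins, fell in each line. In EV it went from 323, 314 and 318 CPM to 219, 223 and 231 CPM, and in WT from 306, 322 and 319 to 199, 215 and 214 CPM. These falls were 0.51 (SE 0.0798, edgeR adjusted p 3.18e-05) and 0.59 (SE 0.0798, edgeR adjusted p 5.16e-06) on the log2 scale. In MUT the untreated libraries held 346, 270 and 333 CPM and the treated ones 235, 231 and 267 CPM. The highest treated library came close to the lowest untreated one without overlap, and JUN fell by 0.38 (SE 0.0796, edgeR adjusted p 0.000523).

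JUNB, a weaker activator that can oppose JUN, fell less. EV libraries went from 72.3, 70.9 and 73.4 CPM to 60.3, 58.9 and 57.3 CPM (log2 fold change -0.30, SE 0.0870, edgeR adjusted p 0.00844). MUT libraries went from 73.4, 60.1 and 78.2 CPM to 59.4, 47.8 and 54.6 CPM (log2 fold change -0.39, SE 0.0868, edgeR adjusted p 0.000847). In WT they went from 60.9, 61.6 and 57.0 CPM to 53.1, 49.0 and 52.2 CPM. Groups did not overlap in any line, yet the WT fall of 0.22 (edgeR adjusted p 0.0445) sat at the threshold. It missed the threshold without any 1 of treated WT replicates 1, 2 and 3 and untreated WT replicates 1 and 2, with values from -0.19 to -0.24 and adjusted p up to 0.143. With all libraries kept, it also missed with upper-quartile factors, without a low-count filter and with a mean of at least 50 counts. The WT fall passed in 6 of 15 alternatives.

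DUSP1, the nuclear MAP kinase phosphatase, also fell in every line. Its levels went from 132, 122 and 125 CPM to 96.5, 89.4 and 102 CPM in EV and from 152, 155 and 153 to 89.9, 111 and 103 CPM in WT. In MUT it started lower, at 99.8, 80.9 and 99.6 CPM, and reached 73.3, 72.9 and 78.4 CPM. No treated library reached its line's untreated range, and the log2 fold changes were -0.40 in EV (SE 0.0854, edgeR adjusted p 0.000663), -0.60 in WT (SE 0.0850, edgeR adjusted p 9.94e-06) and -0.32 in MUT (SE 0.0859, edgeR adjusted p 0.00368).

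ARC, best known as a neuronal gene of synaptic plasticity whose protein forms virus-like capsids, rose in each line. Its untreated level was far lower in WT than in EV or MUT. EV cells held 62.8, 63.6 and 65.6 CPM untreated and 84.1, 94.5 and 89.9 CPM treated (log2 fold change 0.48, SE 0.0650, edgeR adjusted p 5.15e-06). WT cells held 18.5, 17.6 and 20.4 CPM untreated and 49.5, 50.1 and 51.0 CPM treated, a 2.67-fold rise (log2 fold change 1.41, SE 0.0704, edgeR adjusted p 2.14e-11). MUT cells held 51.1, 53.8 and 57.5 CPM untreated and 62.1, 63.5 and 63.4 CPM treated (log2 fold change 0.22, SE 0.0655, edgeR adjusted p 0.00788). Treated libraries were above untreated ones in each line, but even after the rise the WT libraries stayed below untreated EV. The MUT rise was 0.13 with an edgeR adjusted p of 0.113 without untreated MUT replicate 1, and 0.13 (adjusted p 0.104) with the authors' library factors. A fit of the groups compared alone gave 0.21 (edgeR adjusted p 0.0785).

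FOSB, whose protein and its stable short form accumulate with repeated stimulation in neurons, rose from a low level. EV went from 0.876, 0.584 and 1.54 CPM to 1.47, 2.31 and 2.52 CPM, WT from 1.47, 1.64 and 0.825 to 2.04, 3.46 and 2.32 CPM, and MUT from 0.853, 0.252 and 0.571 to 1.49, 1.48 and 1.61 CPM. EV groups overlapped, with the highest untreated library above the lowest treated one, and WT and MUT groups did not. The log2 fold changes were 1.07 in EV (SE 0.385, edgeR adjusted p 0.0264), 0.98 in WT (SE 0.364, edgeR adjusted p 0.0321) and 1.41 in MUT (SE 0.414, edgeR adjusted p 0.00704). The EV call was lost without treated replicate 2 (1.01, adjusted p 0.0637), treated replicate 3 (0.91, 0.1), untreated replicate 1 (0.99, 0.0838) or untreated replicate 2 (0.80, 0.128). The WT call was lost without treated replicate 2 (0.73, edgeR adjusted p 0.154), untreated replicate 1 (1.07, 0.0533) or untreated replicate 3 (0.74, 0.141).

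FOS, the founding member, did not pass in any line in the fit of all groups, its values had both signs, and several other settings gave a call in WT or MUT. EV libraries held 6.19, 7.59 and 7.69 CPM untreated and 9.49, 6.99 and 8.94 CPM treated (log2 fold change 0.25, edgeR adjusted p 0.471). WT libraries held 11.1, 6.14 and 5.99 CPM untreated and 5.61, 4.43 and 4.88 CPM treated (-0.64, edgeR adjusted p 0.0594). MUT libraries held 6.97, 2.83 and 3.94 CPM untreated and 8.66, 5.41 and 6.45 CPM treated (0.56, edgeR adjusted p 0.0905). All treated WT libraries were below the untreated ones, while treated and untreated libraries overlapped in EV and MUT. The WT value passed in 6 of 15 alternatives, with all libraries kept under the authors' factors (-0.70, edgeR adjusted p 0.0407), DESeq2 (-0.63, 0.0469) and the fit of the compared groups (-0.64, 0.00556). The MUT value passed in 2 of 15. Without untreated MUT replicate 1, the highest of its group, the MUT value was 0.96 (edgeR adjusted p 0.00782), and without untreated WT replicate 2 or 3 the WT value was -0.78 (0.0404) or -0.79 (0.037).

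EGR1, a zinc-finger factor induced by growth factors and DNA damage, did not pass either. It stood at 46.3, 41.8 and 46.1 CPM untreated and 44, 45.9 and 53.0 CPM treated in EV, and at 46.3, 59.3 and 50.2 CPM untreated and 48.1, 39.3 and 45.1 CPM treated in WT. MUT libraries held 58.1, 33.4 and 39.4 CPM untreated and 63.1, 41.6 and 54.6 CPM treated. Groups overlapped in every line, and the log2 fold changes were 0.09 in EV, -0.23 in WT and 0.28 in MUT (edgeR adjusted p 0.678, 0.252 and 0.154). The WT value passed in the fit of the compared groups (-0.23, edgeR adjusted p 0.0137). In MUT it passed without treated replicate 2 (0.43, edgeR adjusted p 0.0389) or without untreated replicate 1 (0.50, 0.00944).

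EGR2, which controls myelination in Schwann cells, was close to the limit of counting, with 4 to 33 counts per library. EV held 0.643, 0.409 and 0.676 CPM untreated and 1.17, 1.12 and 1.41 CPM treated, without overlap (log2 fold change 1.10, SE 0.402, edgeR adjusted p 0.0291). That call was lost without treated EV replicate 3 (0.99, edgeR adjusted p 0.0898), untreated EV replicate 1 (1.19, 0.0513) or untreated EV replicate 2 (0.91, 0.115). Neither WT (0.588, 0.529 and 0.605 to 1.07, 0.324 and 0.532 CPM) nor MUT (0.401, 0.252 and 0.400 to 0.395, 0.622 and 0.610 CPM) passed, with edgeR adjusted p of 0.755 and 0.261. The WT value changed sign from 0.17 to -0.41 without treated WT replicate 1.

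**Figure D2:**
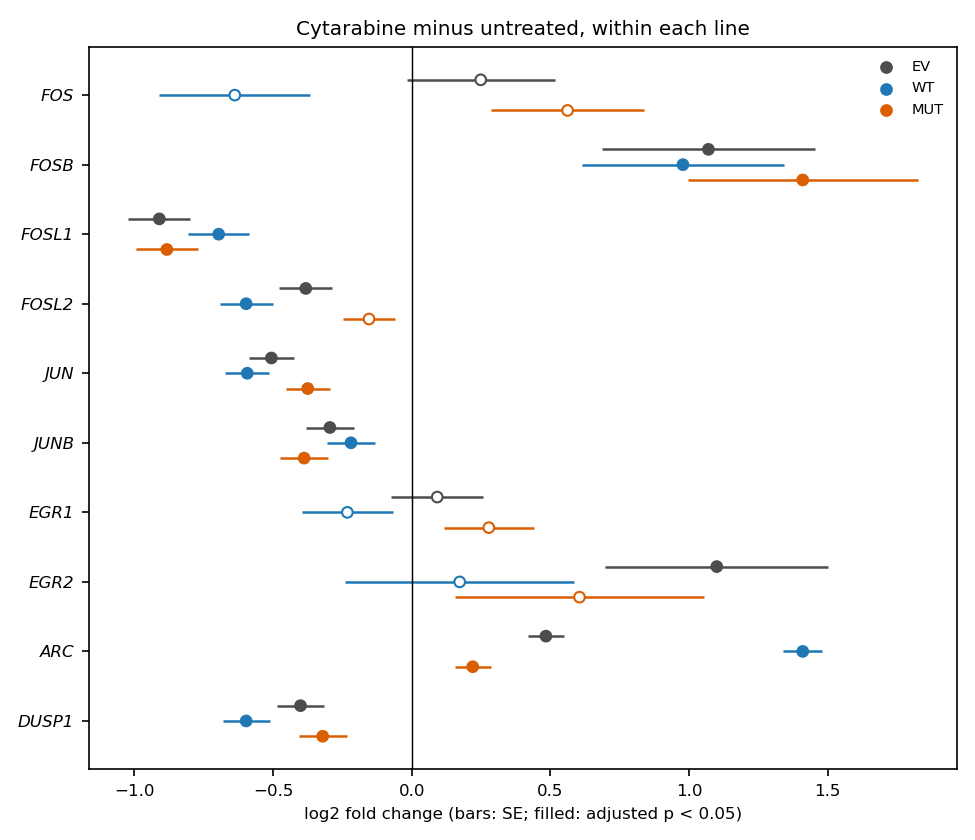
Log2 fold change with cytarabine (x axis) of each member in the EV, WT and MUT lines, with bars of 1 SE from the edgeR fit and filled points for an adjusted p under 0.05. FOSL1, JUN, JUNB and DUSP1 lie left of 0 in all 3 lines, and ARC lies at 1.41 in WT, far to the right of its values in EV and MUT.

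Whether cytarabine acted differently on a member in different lines was tested by the difference of the effects. ARC alone passed. Its rise was larger in WT than in EV by 0.93 (SE 0.0955, edgeR adjusted p 0.000142) and smaller in MUT than in WT, a difference of -1.2 (SE 0.0960, edgeR adjusted p 2.23e-06). Such differences were rare in general. Comparing WT with EV, 0.285% of all tested genes passed (0.143% with a higher effect), and comparing MUT with WT, 1.00% (0.510% higher and 0.494% lower). These comparisons share the WT libraries. Between MUT and EV no member passed by edgeR, beside 0.214% of all tested genes (0.154% higher and 0.0604% lower). At an unadjusted p under 0.05, ARC was the 1 member found (-0.26, p 0.00996, edgeR adjusted p 0.184), and it was the 1 member called by DESeq2 (-0.30, adjusted p 0.0489). It also passed without untreated MUT replicate 1 (-0.36, edgeR adjusted p 0.0309). Without that library 935 genes in place of 39 passed for MUT against EV, and 1235 in place of 183 for MUT against WT. FOSL2 and FOS came next for MUT against WT, with differences of 0.44 (edgeR adjusted p 0.116) and 1.2 (0.134). Without untreated MUT replicate 1, FOS (1.60, edgeR adjusted p 0.0156) and EGR1 (0.73, 0.0357, from 0.51 and 0.294 with all libraries) passed, and FOSL2 did without untreated MUT replicate 2 (0.51, 0.0244). For the other members a difference between lines was not detected, which does not show that they responded alike.

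Before treatment the lines differed in a few members. The comparisons share libraries, so a high or low line enters more than 1 of them. ARC was lower in WT than in EV by 1.76 on the log2 scale, a difference of -1.76 (SE 0.0706, edgeR adjusted p 4.63e-12) that left 0.294 of the EV level. It was 1.52 higher in MUT than in WT (SE 0.0706, edgeR adjusted p 2.82e-11). Between MUT and EV it differed by -0.24 (edgeR adjusted p 0.0143), a call lost without untreated EV replicate 3 (-0.22, 0.0607) or untreated MUT replicate 1 (-0.16, 0.1) and in a fit of those groups alone (-0.25, 0.123).

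DUSP1 stood in another order, with WT highest and MUT lowest. It was lower in MUT than in EV (log2 difference -0.44, SE 0.0856, edgeR adjusted p 0.00137) and than in WT (-0.72, SE 0.0854, edgeR adjusted p 9.71e-06). WT exceeded EV by 0.28 (edgeR adjusted p 0.038), which missed the threshold without any 1 of the 6 libraries (0.25 to 0.31, adjusted p 0.0584 to 0.138). FOSL2 was 0.28 higher in untreated MUT than in EV (edgeR adjusted p 0.0442). That call was lost without any 1 of the 3 EV libraries or of MUT replicates 1 and 2 (0.20 to 0.31, edgeR adjusted p 0.071 to 0.135) and in a fit of those groups alone (0.28, 0.274). Without untreated MUT replicate 3, the lowest of its group, the difference was larger, at 0.46, and passed. The FOSL2 difference passed in 7 of 15 alternatives.

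In counts, 1 member was higher and 2 were lower in untreated MUT than in EV, beside 19.9% of all tested genes (9.88% higher and 10.0% lower). WT against EV gave 1 higher and 1 lower, beside 11.7% (4.30% and 7.36%), and MUT against WT 1 higher and 1 lower, beside 21.2% (11.7% and 9.54%). Close to the threshold without passing were JUNB in WT against EV (-0.27, edgeR adjusted p 0.0502) and in MUT against WT (0.24, 0.0576), FOSB in MUT against WT (-1.19, 0.051) and FOS in the same comparison (-0.74, 0.0624). FOS passed there without untreated MUT replicate 1 (-1.14, edgeR adjusted p 0.00636) or untreated WT replicate 3 (-0.90, 0.0488), and in MUT against EV without untreated MUT replicate 1 (-1.03, 0.0144). FOSB passed in MUT against WT without untreated MUT replicate 1 (-1.60, edgeR adjusted p 0.0248) or untreated WT replicate 3 (-1.43, 0.0338), and JUNB without untreated MUT replicate 2 (0.38, 0.00181). EGR1 passed in MUT against WT without untreated MUT replicate 1 (-0.46, edgeR adjusted p 0.031), and FOSL2 without untreated MUT replicate 3 (0.27, 0.00174).

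With all libraries kept, other settings also moved these values past the threshold. JUNB passed in WT against EV with relative log expression factors, a mean of at least 50 counts, DESeq2 and the fit of the compared groups (-0.26 to -0.28, adjusted p 0.000182 to 0.0446). In MUT against WT it passed with all of these but the last, and with the authors' factors (0.26 to 0.28, adjusted p 0.0149 to 0.0396). There FOS passed with DESeq2 (-0.71, adjusted p 0.0461), and FOSB with DESeq2 (-1.16, 0.0395) and upper-quartile factors (-1.19, 0.0496). In the fit of the compared groups, FOSL1 (0.16, edgeR adjusted p 0.00779), FOSL2 (0.20, 0.000129) and EGR1 (0.22, 0.0231) passed as higher in WT than in EV.

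Among the treated libraries, FOSL2 separated the MUT line from the others. Its treated MUT libraries (323 to 342 CPM) lay above all treated EV (226 to 246) and WT (227 to 235) libraries, by 0.51 against EV (SE 0.0957, edgeR adjusted p 0.00144) and 0.53 against WT (SE 0.0957, edgeR adjusted p 0.000634). Untreated MUT replicates 1 and 2 (400 and 423 CPM) already lay above all untreated EV and WT libraries, and replicate 3 (288 CPM) lay below them. The effect of the drug on FOSL2 did not differ detectably between MUT and EV (difference 0.23, edgeR adjusted p 0.432). DUSP1 was lower in treated MUT than in EV (-0.36, SE 0.0857, edgeR adjusted p 0.00855) and WT (-0.44, SE 0.0857, edgeR adjusted p 0.00114). ARC kept its order, with WT below EV (-0.83, SE 0.0653, edgeR adjusted p 5.23e-08), MUT below EV (-0.51, SE 0.0645, edgeR adjusted p 3.78e-05) and MUT above WT (0.33, SE 0.0654, edgeR adjusted p 0.00139). The gap between WT and EV in ARC was thus narrower with the drug than without it, which is the difference of effects given above.

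FOSL1 was higher in treated WT than in treated EV by 0.37 (edgeR adjusted p 0.0298) and lower in MUT than in WT (-0.43, SE 0.112, edgeR adjusted p 0.0107). The first was lost without any 1 of EV or WT replicates 2 and 3 (0.31 to 0.37, edgeR adjusted p 0.0695 to 0.129), the second without MUT replicate 1 (-0.33, 0.0749) or WT replicate 2 (-0.37, 0.0586). EGR2 was lower in treated MUT than in EV (-1.19, edgeR adjusted p 0.0498), and this was lost without any 1 of the 6 libraries (adjusted p 0.074 to 0.172). Treated WT against EV passed for EGR2 without WT replicate 1 (-1.51, edgeR adjusted p 0.0245) and under no other alternative run. FOS in the same comparison did not pass (-0.77, edgeR adjusted p 0.0592), though its treated WT libraries (4.43 to 5.61 CPM) all lay below those of EV (6.99 to 9.49). It passed with DESeq2 (-0.77, adjusted p 0.0346) and the fit of the compared groups (-0.78, 0.00766). JUN in treated MUT against WT (0.22, edgeR adjusted p 0.0548) passed with the authors' factors, a mean of at least 50 counts, DESeq2 and the fit of the compared groups (adjusted p 0.0051 to 0.047), and FOSB passed in that last fit (-0.76, 0.0344). In counts, 1 member was higher and 3 lower in treated MUT than in EV, beside 14.0% of all tested genes (6.85% higher and 7.13% lower). WT against EV gave 1 higher and 1 lower, beside 16.5% (7.41% and 9.12%), and MUT against WT 2 higher and 2 lower, beside 19.8% (10.4% and 9.48%).

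**Figure D3:**
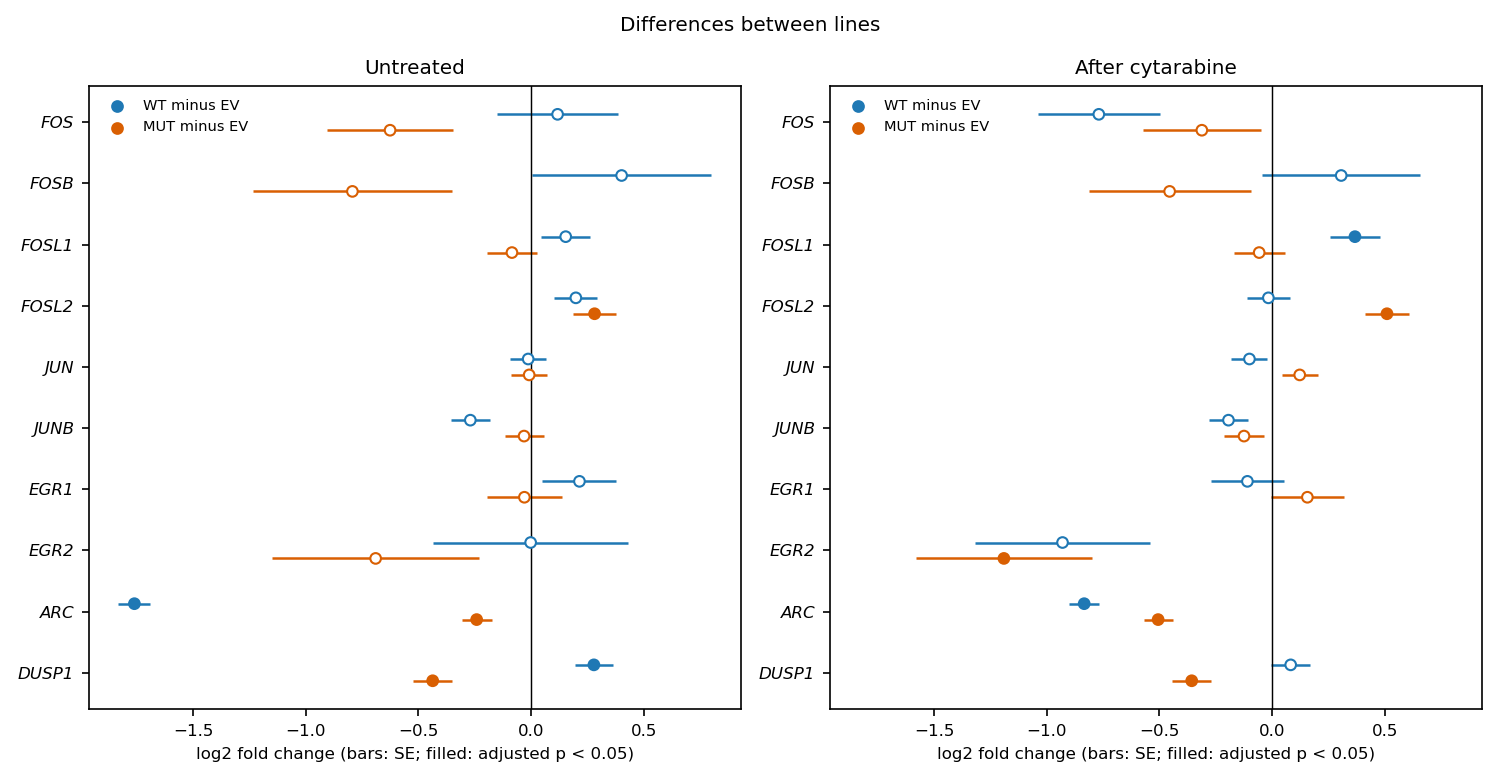
Log2 differences of WT and MUT from EV (x axes) for each member, untreated on the left and with cytarabine on the right, with bars of 1 SE from the edgeR fit and filled points for an adjusted p under 0.05. ARC in WT lies at -1.76 untreated and -0.83 with the drug, and FOSL2 in MUT lies at 0.28 and 0.51.

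The make-up of the FOS family shifted with the falls. Per kb of exon, FOSL1 and FOSL2 together made up nearly all FOS-family RNA in every group, and the family's summed level went from 97.1 ± 2.28 to 63.4 ± 1.93 CPM per kb in EV (SD, n = 3), from 109 ± 1.28 to 70.1 ± 2.27 in WT and from 102 ± 8.46 to 75.5 ± 3.85 in MUT. FOSL1's share of that sum was 53.7% ± 1.13 in untreated and 43.6% ± 3.23 in treated EV, and 48.0% ± 8.62 and 35.2% ± 2.94 in MUT. Its highest treated library stayed below its lowest untreated one in EV (47.0% against 52.8%) and in MUT (38.3% against 39.4%). WT differed less, at 52.9% ± 1.5 and 51.0% ± 1.88, and its groups overlapped. FOSL2 made up 61.6% ± 2.15 of the family in treated MUT, the highest share of any group. FOS itself never exceeded 4.54% of the family in a library, nor FOSB 0.857%.

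In the JUN family, JUN's share of the summed level per kb went from 45.3% ± 0.673 to 37.7% ± 1.15 in EV (SD, n = 3), from 43.6% ± 1.27 to 38.4% ± 1.99 in WT and from 40.6% ± 2.89 to 38.7% ± 2.49 in MUT. JUND, another JUN family gene, made up 34.4% ± 0.715 of untreated and 42.7% ± 1.10 of treated EV, and 41.6% ± 3.36 of untreated and 44.4% ± 1.57 of treated MUT. In WT its share was 40.0% ± 1.30 untreated and 42.9% ± 1.74 treated, while JUND RNA fell by 0.31 (edgeR adjusted p 0.0103). In EV, JUND RNA itself was at 129 ± 5.29 CPM untreated and 135 ± 6.01 treated (log2 fold change 0.07, edgeR adjusted p 0.569), so the larger share in EV came with lower JUN and JUNB. Treated and untreated shares did not overlap in EV for JUN or JUND, nor in WT for JUN. They overlapped in MUT for JUN (38.6% to 43.9% untreated, 35.8% to 40.1% treated) and JUND (37.7% to 43.5%, 43.4% to 46.2%). In WT the JUND shares overlapped as well (39.2% to 41.5%, 41.0% to 44.3%). These shares are descriptions over 3 libraries a group, with no test.

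**Figure D4:**
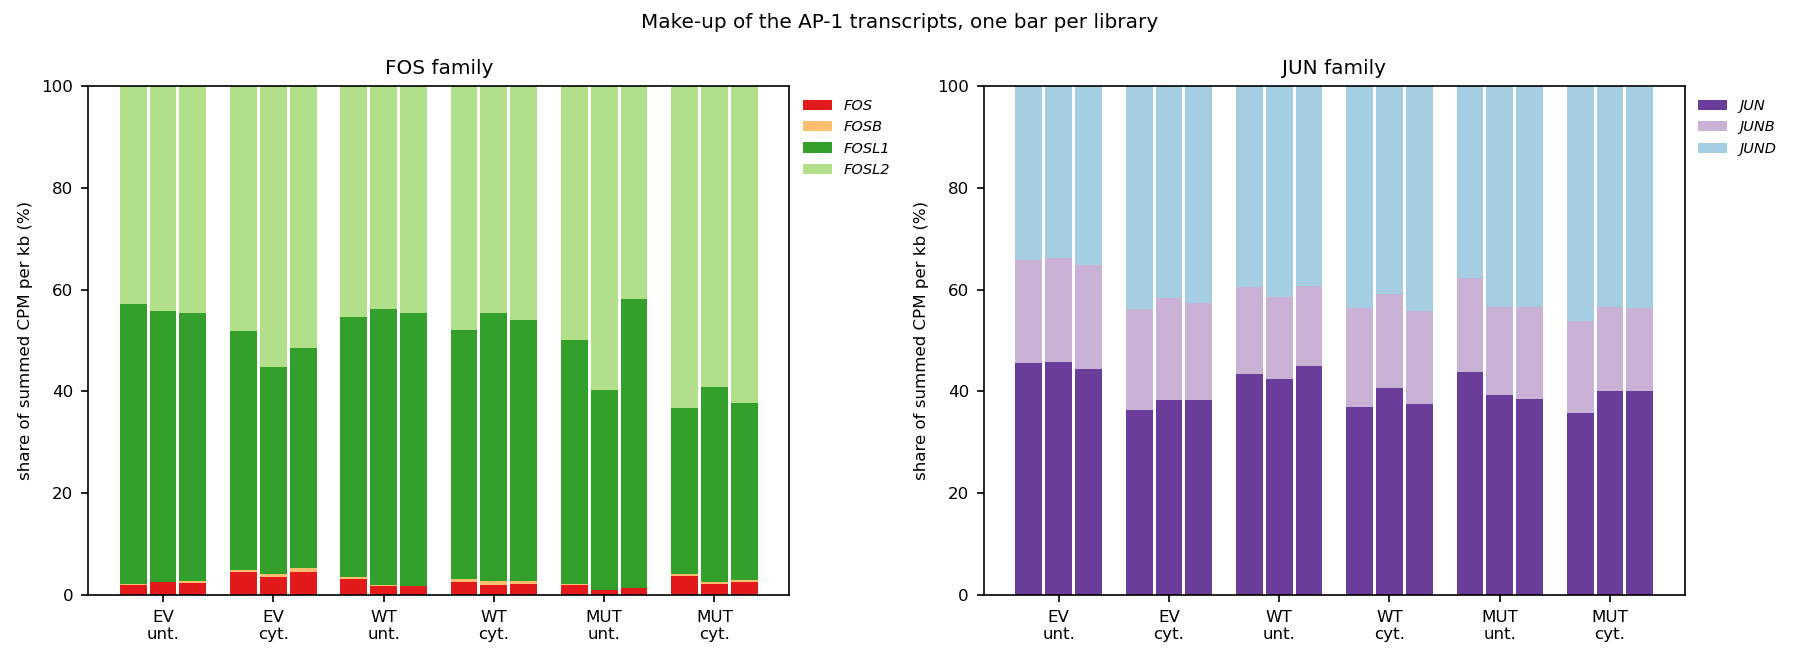
Share (%) of each gene in the summed CPM per kb of the FOS family and of the JUN family, with 1 stacked bar per library, by line and treatment. The mean part of FOSL1 is smaller with cytarabine in EV (53.7% to 43.6%) and MUT (48.0% to 35.2%), and FOS and FOSB are thin slices throughout.

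Around the members, genes that carry the signal to them changed in both directions. Of 30 tested SRF and MAP kinase inputs, 3 rose and 13 fell in EV, 5 and 12 in WT, and 9 and 13 in MUT, with 3 rising and 9 falling in all 3 lines. Those that changed numbered 16, 17 and 22, beside 49.1%, 49.0% and 56.3% of all tested genes. By direction, 26.1% of all tested genes rose and 22.9% fell in EV, 26.3% and 22.7% in WT, and 30.4% and 25.9% in MUT. In all 3 lines 18.9% rose and 16.4% fell. Falls thus took a larger part of the list than of all genes. This was not tested, and the list was chosen with earlier results of these data known. The list's median log2 fold change was -0.15, -0.09 and -0.12, against 0.05, 0.03 and 0.05 over all tested genes. SRF, which binds the CArG box, went from 180 ± 3.46 to 109 ± 4.43 CPM in EV (SD, n = 3), with log2 fold changes of -0.73, -0.84 and -0.89 in EV, WT and MUT (edgeR adjusted p 6.17e-08, 1e-08 and 3.02e-09). MAP2K7, a kinase that activates JNK, fell by 0.53, 0.50 and 0.56 in the same order (edgeR adjusted p 4.62e-06, 8e-06 and 1.35e-06). RPS6KA1, a kinase downstream of ERK, rose by 0.55, 0.63 and 0.30 (edgeR adjusted p 2.08e-06, 3.99e-07 and 0.000885).

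Among 11 tested MAP kinase feedback genes, relatives of DUSP1, 1 rose and 2 fell in EV, 1 and 3 in WT, and 1 and 3 in MUT. Of all tested genes, 49.1%, 49.0% and 56.3% changed. DUSP7, a cytoplasmic ERK phosphatase, fell in all 3 lines, by 0.53, 0.37 and 0.64 (edgeR adjusted p 2.39e-05, 0.000767 and 1.97e-06). DUSP5, a nuclear ERK phosphatase, rose in all 3, by 0.55, 0.86 and 0.39 (edgeR adjusted p 0.00133, 9.28e-06 and 0.0157). DUSP9 was lower in untreated WT than in EV by 0.60, at 29.8 ± 0.941 against 45.2 ± 1.89 CPM (log2 difference -0.60, edgeR adjusted p 2.05e-05).

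Of 27 other immediate early genes tested, 5 rose and 9 fell in EV, 4 and 14 in WT, and 5 and 11 in MUT, and 4 rose and 7 fell in all 3 lines. Beside these counts, 49.1%, 49.0% and 56.3% of all tested genes changed, and 18.9% rose and 16.4% fell in all 3 lines. By direction, 26.1% of all tested genes rose and 22.9% fell in EV, 26.3% and 22.7% in WT, and 30.4% and 25.9% in MUT. Falls took a larger part of this list than of all genes in each line, most so in WT. This was not tested, and this list too was chosen with earlier results of these data known. MYC, the growth regulator, went from 267 ± 4.83 to 125 ± 10.3 CPM in EV (SD, n = 3), and its log2 fold changes were -1.10, -1.13 and -1.01 in EV, WT and MUT (edgeR adjusted p 7.33e-09, 4.78e-09 and 1.22e-08). ZFP36L1, which speeds the decay of AU-rich mRNAs, fell by 0.84, 0.81 and 0.44 (edgeR adjusted p 1.41e-09, 1.76e-09 and 2.63e-06), and its fall was smaller in MUT than in EV (difference 0.40, edgeR adjusted p 0.0403) and than in WT (0.37, 0.0317). BTG2, an antiproliferative p53 target, rose by 0.54, 0.84 and 0.87 (edgeR adjusted p 1.99e-06, 8.73e-09 and 4.39e-09). CTGF, a matrix growth factor, differed between untreated lines, at 657 ± 11.1 CPM in WT and 288 ± 12.3 in EV (log2 difference 1.19, SE 0.0817, edgeR adjusted p 7.18e-09).

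Among the AP-1 partners, 11 tested of 13 listed, the numbers changed were 3 (EV), 7 (WT) and 6 (MUT), and 3, 4 and 5 of these rose, where 49.1%, 49.0% and 56.3% of all tested genes changed. ATF3, a stress-induced partner of JUN, rose by 0.80, 0.84 and 0.75 (edgeR adjusted p 1.17e-06, 6.21e-07 and 1.73e-06), from 48.4 ± 0.313 to 84.1 ± 6.98 CPM in EV (SD, n = 3). MAF, a bZIP factor of another branch, was at 32.5 ± 2.15 CPM in untreated EV and 11.0 ± 1.14 in untreated MUT (log2 difference -1.56, SE 0.126, edgeR adjusted p 1.31e-07). Its response to the drug differed between MUT and WT (difference 1.02, SE 0.177, edgeR adjusted p 0.00837), with a fall of 0.65 in WT and a rise of 0.37 in MUT. Of the 4 tested EGR relatives and corepressors, the numbers changed were 2 (EV), 1 (WT) and 3 (MUT), beside the same shares of all genes. NAB2, a corepressor that binds EGR1, fell by 0.29 in EV (edgeR adjusted p 0.00293). In WT (-0.11, edgeR adjusted p 0.249) and MUT (0.04, 0.656) it did not pass. NAB1, its relative, rose by 0.40 in MUT (edgeR adjusted p 0.000126) and did not pass in EV (0.01, 0.91) or WT (0.07, 0.448). For neither gene did a difference of effects between lines pass in the fit of all groups (edgeR adjusted p 0.107 or more).

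Of 21 tested genes known as AP-1 targets, 7 rose and 5 fell in EV, 7 and 3 in WT, and 9 and 4 in MUT, with 6 rising and 3 falling in all 3 lines. Of all tested genes, 26.1% rose and 22.9% fell in EV, 26.3% and 22.7% in WT, 30.4% and 25.9% in MUT, and 18.9% and 16.4% in all 3 lines. The list's median log2 fold change was 0.02, 0.09 and 0.26, against 0.05, 0.03 and 0.05 over all tested genes. AREG, an EGF receptor ligand, rose by 1.72, 2.50 and 1.97 (edgeR adjusted p 1.68e-08, 1.41e-10 and 3.02e-09), from 11.7 ± 0.973 to 66.4 ± 5.16 CPM in WT (SD, n = 3). IL11, a cytokine of bone and stroma, rose by 1.41, 1.38 and 0.89 (edgeR adjusted p 6.86e-10, 8.39e-10 and 8.17e-08). HMOX1, which breaks down heme, rose by 0.65, 1.11 and 0.55 (edgeR adjusted p 9.44e-06, 1.44e-08 and 4.28e-05), less in MUT than in WT (difference -0.56, edgeR adjusted p 0.0446). These 3 genes were named for their small adjusted p, and those on the list that fell are not named. FOSL1 and JUN RNA was lower in the same treated cells. Any link between those falls and the target genes was not tested, and the RNA data hold no AP-1 protein or activity. The differences of effects named for ZFP36L1, MAF and HMOX1 did not pass in a fit of the groups compared alone, whereas with DESeq2 9 list genes passed when MUT was compared with EV and 14 when it was compared with WT (2 and 5 with edgeR).

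Over the 18 libraries and 13674 genes compared, the genes whose log2 CPM tracked FOSL1 most closely were SLC3A2, LINC00839 and RRP15 (Pearson's r 0.982, 0.978 and 0.971). For JUN they were HNRNPDL, SRSF2 and WDR5 (0.970, 0.964 and 0.961). EGR1 had no gene as close, with MORC3, MSH5-SAPCD1 and KHDC1 at 0.742, 0.703 and 0.702. The libraries share treatment and line, so these values describe a common pattern over the 6 groups.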

How the data were processed

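Per the submitters' processing notes, reads were handled with CASAVA and STAR 2.6.1d on hg38; the tool that counted them and its strand setting are not given in the sources used here. The authors deposited estimated counts per gene for 18 libraries, not normalized (70.4% of values whole, totals 15.4 to 21.9 M), and a second table of scaled signal, which equalled a factor for each library times the count and was used as an alternative scaling. Groups came from the sample titles, which call the drug time 24 h post treatment.

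Counts were rounded to whole numbers, and edgeR 4.0.16 (R 4.3.3) was run on them: filterByExpr (18226 genes tested), TMM factors, and 1 quasi-likelihood fit of all 18 libraries with 6 group terms. In it 12 contrasts were tested, adjusted by Benjamini and Hochberg over all tested genes, with a threshold of 0.05. CPM are per M of TMM-scaled counts, and SE is the absolute log2 fold change over the square root of F. Levels per kb used exonic lengths of GENCODE release 44. Replicate numbers were not used to pair libraries. Alternatives were other scalings, filters, DESeq2 1.42.0, a replicate block, a fit of only the groups compared, a minimum log2 fold change of 1, and leaving out each library.

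Members and gene lists were chosen with earlier results of these data known. Besides the members, the text names of each of 6 lists up to 3 genes with the smallest adjusted p over the cytarabine effects and up to 2 over the untreated line comparisons, where log2 CPM averaged 1 or more, and for FOSL1, JUN and EGR1 the 3 genes of closest pattern. Some genes that this rule selects are not reported here.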

Additional observations from a re-analysis of the deposited data

Results flagged for a closer look

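ARC drew attention because its response to cytarabine differed between lines by the test of the difference itself. The log2 effect in MUT minus that in WT was -1.2 (SE 0.0960, edgeR adjusted p 2.23e-06), and the effect in WT minus that in EV was 0.931 (SE 0.0955, edgeR adjusted p 0.000142). All 3 treated WT libraries exceeded all 3 untreated ones, as in the other lines. The WT line entered both comparisons and its untreated libraries were the lowest of all groups, at 17.6 to 20.4 CPM. Leaving out each library in turn gave -1.28 to -1.18 for the first and 0.88 to 0.991 for the second, and both kept an edgeR adjusted p under 0.05.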

How the results depend on the processing

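Of 1061 values of single members recomputed under an alternative, 920 kept their direction and side of the threshold, 87 lost the threshold, 53 gained it and 1 reversed. The reversal was EGR2 in WT (0.17), at -0.409 without treated WT replicate 1, in a range up to 0.476 without other libraries. These values cover all cytarabine effects, and other contrasts only where the main adjusted p was small or a call changed under an alternative. Changes of sign in the remaining contrasts were not counted. Of 294 counts, 245 stayed within 1.5 times and 49 moved. Where a value moved, the cause was not tested. A minimum absolute log2 fold change of 1, by its own construction, left 2, 1 and 1 members for cytarabine in EV, WT and MUT, 0 for the difference of effects WT against EV, 0, 1 and 1 for the untreated pairs MUT and EV, WT and EV, and MUT and WT, and 1, 0 and 0 for those pairs with the drug. The authors' factors left 1 member for untreated WT against EV. With DESeq2, 1 member differed in effect between MUT and EV, and 5 between untreated MUT and WT. Fitting only the compared groups gave 1 member for untreated MUT against EV and 6 for untreated WT against EV. In it 845 genes in all passed between untreated MUT and EV (3632 in the fit of all groups), 5073 between WT and EV (2125), 1080 between MUT and WT (3872) and 6082 between treated MUT and WT (3616).

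Leaving out 1 library gave 6 to 8 members for cytarabine in EV, 5 to 7 in WT and 6 to 7 in MUT. For differences of effects it gave 0 to 1 (MUT against EV), 1 to 3 (MUT against WT) and 1 throughout (WT against EV). Untreated comparisons gave 1 to 3 (MUT against EV), 1 (WT against EV) and 2 to 5 (MUT against WT), and treated ones 3, 1 to 3, and 3 to 4. Calls summed over the 6 gene lists moved too. For the difference MUT against EV these were 2 genes, and 1 with relative log expression factors, 1 without a low-count filter, 0 with the replicate block, 9 with DESeq2 and 0 in a fit of the groups compared. For WT against EV they were 0, and 1 with upper-quartile factors, 1 with a mean of at least 50 counts, 3 with DESeq2 and 8 in a fit of the groups compared. For MUT against WT they were 5, and 3 without a filter, 10 with at least 50 counts, 2 with the replicate block, 14 with DESeq2 and 0 in a fit of the groups compared. In that last fit untreated comparisons gave 10 (MUT against EV, 27 before), 51 (WT against EV, 28) and 13 (MUT against WT, 40).

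The share of rising genes among all differences of effects moved with the scaling: from 71.8% to 48.1% for MUT against EV and from 50.8% to 29.1% for MUT against WT with relative log expression factors, to 46.3% for the former with upper-quartile factors, and from 50% to 68.8% for WT against EV with the authors' factors. For untreated MUT against WT it went from 55.1% to 65.4% with relative log expression factors. The labels state no pairing of same-numbered replicates. Their deviations correlated from -0.176 to 0.326 (4 of 27 over 0.1), and 11 of 27 correlated best with their own number. The highest values were for MUT replicate 3, untreated with treated (0.326), and for treated EV with treated MUT, replicates 3 (0.305) and 1 (0.272). This check over all genes cannot decide whether the numbers carry a pairing for single members. With the number as a replicate block, 4 members passed for untreated MUT against WT and the other member counts stayed within 1.5 times, at 8, 8 and 7 for cytarabine in EV, WT and MUT. With the block FOS passed for cytarabine in WT (-0.61, edgeR adjusted p 0.0248) and MUT (0.59, 0.0267), for untreated MUT against EV (-0.71, 0.0315) and WT (-0.76, 0.0187) and for treated WT against EV (-0.77, 0.0191). JUNB passed for untreated WT against EV (-0.27, 0.0378) and MUT against WT (0.23, 0.0484), FOSL2 missed for untreated MUT against EV (0.28, 0.0522) and EGR2 for treated MUT against EV (-1.17, 0.0604). Low counts limit FOSB and EGR2, whose SE was 0.36 or more on the log2 scale in each cytarabine effect.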
